A study of Mus musculus with 2 samples.

Results

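Glutathione S-transferases and antioxidant genes were examined in RNA of mouse satellite cells with and without a deletion of Cipc. The genes were all rows of the deposited count table whose Ensembl identifier carries a symbol of a cytosolic, omega, zeta or kappa glutathione S-transferase (Gst), a glutathione peroxidase (Gpx), a peroxiredoxin (Prdx) or a superoxide dismutase (Sod), together with 12 named genes around the transcription factor NRF2. In the GENCODE vM21 annotation 57 genes fit this description. Of these, 46 were among the 16190 genes of the table, and they comprised 45 protein-coding genes and the processed pseudogene Gstm2-ps1. The other 11 have no row in the table. They are the protein-coding Gsta3, Gstp3, Gstt4, Gpx2, Gpx5, Gpx6 and Prdx6b and the 4 pseudogenes Gpx2-ps1, Gpx4-ps2, Prdx2-rs3 and Prdx6-ps2, and they were not analysed here.

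The groups were cells of Cipc scko mice, titled Cipc-/- and described by the series as having Cipc deleted in satellite cells, and cells of Cipc flox/flox mice, titled Cipc+/+ (called scko cells and flox/flox cells below). Both were of strain C57BL/6, both were taken from the tibialis anterior muscle, and the flox/flox controls carry the floxed allele without the deletion. Cipc encodes a repressor of the circadian transcription factors CLOCK and BMAL1. Each group was sequenced as 1 library of total RNA. The sources used here do not name the Cre driver, the age and number of the animals, or the hour of collection. Without replicates no difference can be checked against variation between animals, so values describe these 2 libraries, and intervals hold counting error alone.

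Cells meet reactive oxygen species with several enzyme layers. Superoxide dismutases turn superoxide into hydrogen peroxide, which catalase, glutathione peroxidases and peroxiredoxins reduce further, and glutathione S-transferases couple glutathione to lipid aldehydes and other electrophiles. Many of these genes are induced by NRF2 (gene Nfe2l2), which the adaptor KEAP1 holds at a low level until electrophiles or oxidants modify KEAP1, and NADPH from the pentose phosphate pathway keeps glutathione and thioredoxin reduced. In muscle, satellite cells are known to pass through changes in oxidant load when they leave quiescence and differentiate.

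The libraries held 16830168 counts in scko cells and 16145870 in flox/flox cells. They differed in more than Cipc. Cipc itself stood at 37.0 CPM (counts scaled to depth with TMM factors) in scko cells and 113 CPM in flox/flox cells. Xist had 4 counts in scko cells and 3898 in flox/flox cells, while the Y-linked Ddx3y, Uty and Kdm5d had 155 to 511 counts in scko cells and 0 in flox/flox cells, so sex-linked expression ran with genotype and cannot be told apart from it. All 12 differentiation markers of a list including Myog and Ckm were in the table, and they summed to 20988 CPM in scko cells and 52.8 CPM in flox/flox cells, where Myh7 and Myh8 were at 0. Of 10 satellite cell and myoblast markers 8 were present, summing to 7961 CPM in scko cells and 3922 CPM in flox/flox cells, without a row for Calcr and Chodl. Pax7, the defining marker, was low in the controls, with 62.2 CPM in scko cells and 2.54 CPM in flox/flox cells. Of 8 smooth muscle and pericyte markers 5 summed to 12872 CPM in scko cells and 627 CPM in flox/flox cells (Abcc9 at 0 in flox/flox cells). That sum covers Acta2, Mcam, Pdgfrb, Cspg4 and Abcc9, while Myh11, Rgs5 and Kcnj8 had no row. Of 10 fibroblast markers 8 summed to 3049 CPM in scko cells and 2270 CPM in flox/flox cells (Pi16 at 0 in scko cells), without a row for Dpt and Lum. The macrophage, endothelial, adipocyte, erythroid, Schwann cell and neutrophil lists, with 2 to 7 members present each, summed to between 0.810 and 12.9 CPM in scko cells and between 2.07 and 48.0 CPM in flox/flox cells. Of these lists, the macrophage marker Mrc1, the endothelial markers Esam and Tek and the adipocyte marker Fabp4 were at 0 in scko cells, and the endothelial marker Pecam1 was at 0 in flox/flox cells. None of 5 hepatocyte markers had a row. The part of these differences in the values below was not tested. In a bulk sample, fewer cells of a type and less RNA per cell cannot be told apart.

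The antioxidant genes did not move as a block. The 3 alpha-class transferases, Srxn1, Nqo1 and G6pdx were over 4-fold lower in scko cells, Gpx3, Gpx7, Gstm4, Gstt1, Gstk1 and Gstp2 were over 4-fold higher, and 27 genes were not called at 2-fold. Of the 46 genes, 45 had 1 CPM or more in at least one library and 20 counts or more in all. Ratios are given as Cipc scko over Cipc flox/flox. To be called higher or lower, a gene needed a difference of 2-fold or more and an exact 95% counting interval without equality. By this rule 11 of the 45 genes were higher, which is 24.4%, beside 21.2% of all 12874 genes past the filter, and 7 were lower, which is 15.6%, beside 15.9% of all genes. At 2-fold both shares are near the background of these libraries, so the number of called genes is not in itself a result about antioxidant genes. At a limit of 1.5-fold, 13 of the 45 genes were higher, beside 3739 of all 12874 (29.0%), and 14 of the 45 lower, beside 3318 (25.8%). At a limit of 4-fold, 6 of the 45 were higher, beside 1608 of all 12874 (12.5%), and 6 of the 45 lower, beside 860 (6.68%). The median log2 ratio was -0.13, against 0.0062 over all genes past the filter. Of the 45 ratios, 17 lay above 0 and 28 below, and over all 12874 genes 6474 lay above and 6400 below. Summed over all 46 genes the counts came to 85367 in scko cells and 103109 in flox/flox cells, a log2 ratio of -0.20 (95% counting interval -0.21 to -0.18).

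**Figure D1:**
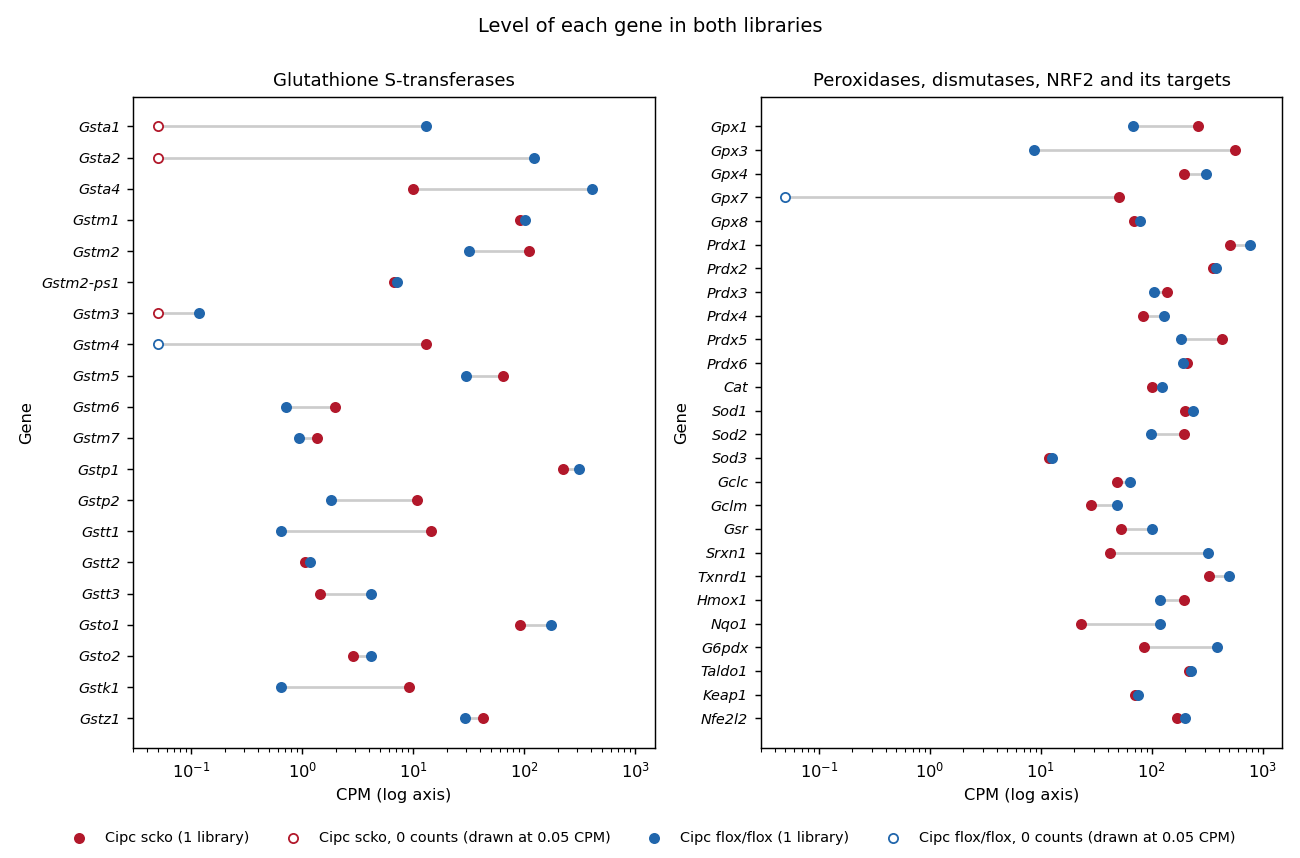
Level of each of the 46 genes in CPM on a log axis, with the Cipc scko library in red and the Cipc flox/flox library in blue, 1 library each; open circles at the left edge are genes with 0 counts. The Cipc scko points of Gsta1, Gsta2 and Gsta4 lie far to the left of their Cipc flox/flox points, and those of Gpx3 and Gpx7 far to the right of theirs. Most peroxiredoxins and dismutases have overlapping or adjacent points.

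**Figure D2:**
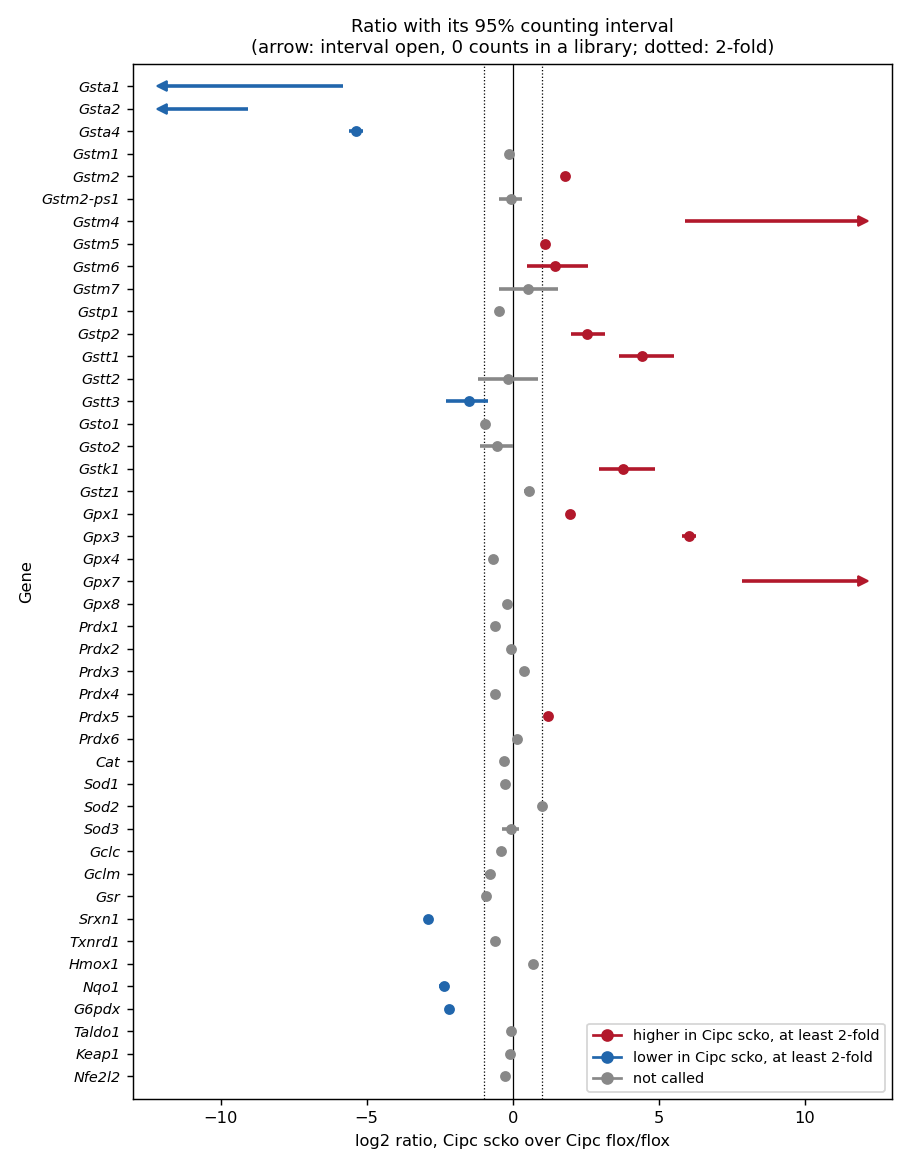
Log2 ratio (scko over flox/flox) for the 45 genes past the filter, grouped by family, with bars for the 95% counting interval and arrows where a library had 0 counts. The 11 genes called higher are red, the 7 called lower are blue, and the other 27 are grey.

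The alpha-class transferases had the lowest ratio of any family here. These enzymes conjugate lipid peroxidation products, and Gsta4 is known for its activity towards hydroxynonenal. Gsta4 (ENSMUSG00000032348, GRCm38 chromosome 9, 78182774 to 78209349, plus strand) had 160 counts in scko cells and 6924 in flox/flox cells, or 9.97 CPM in scko cells and 409 CPM in flox/flox cells. It was 41.0-fold lower in scko cells, with a log2 ratio of -5.35 (-5.59 to -5.13). By the authors' FPKM, which divide counts by transcript length, Gsta4 ranked 31st among the 46 genes in scko cells and was the highest of them in flox/flox cells, at 9.93 FPKM in scko cells and 448 FPKM in flox/flox cells. It has no near-identical copy, being 68.9% identical to Gsta1 over 607 bases.

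Gsta2 (chromosome 9, 78331018 to 78355788, minus strand) had 0 counts in scko cells and 2093 in flox/flox cells. It was 662-fold lower when 0 is replaced by a floor of 3 counts per library (interval from 538-fold). Gsta1 (chromosome 9, 78230656 to 78242684, plus strand) had 0 counts in scko cells and 221 in flox/flox cells, 69.9-fold lower with this floor (interval from 56.4-fold). Reads of these genes cannot be assigned with certainty, because their longest transcripts are 97.2% identical over 870 bases. The gene model Gm10639, 98.3% identical to Gsta2, had 0 counts in scko cells and 124 in flox/flox cells, and Gm3776, 99.5% identical to Gsta1, has no row in the table. Summed, Gsta1, Gsta2 and Gm10639 had 0 counts in scko cells and 2438 in flox/flox cells, 771-fold lower with the floor, a value that does not depend on how reads were shared among the 3. Together the 3 alpha-class genes of the set came to 160 counts in scko cells and 9238 in flox/flox cells (log2 ratio -5.77, -6.01 to -5.55).

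The RefSeq promoter windows of Gsta2 (chr9:78347096-78347395, minus strand) and Gsta1 (chr9:78230419-78230718, plus strand) are given because both genes were at 0 in scko cells and to show how alike the copies are upstream of the transcript. Each window covers 250 bases before the RefSeq start and 50 from it on, on GRCm38.p6, written 5′ to 3′. The RefSeq start of Gsta2 lies 8643 bases from its GENCODE start, and that of Gsta1 13 bases. Aligned end to end, the windows shared 232 of 289 aligned bases (80.3%). Gsta4 is not in the promoter table used here. Capitals, here and in the windows shown further on, would mark matches to the antioxidant response element core TGACNNNGC, the E-box CACGTG or the AP-1 element TGAGTCA on either strand, and neither of these windows holds one.
Gsta2: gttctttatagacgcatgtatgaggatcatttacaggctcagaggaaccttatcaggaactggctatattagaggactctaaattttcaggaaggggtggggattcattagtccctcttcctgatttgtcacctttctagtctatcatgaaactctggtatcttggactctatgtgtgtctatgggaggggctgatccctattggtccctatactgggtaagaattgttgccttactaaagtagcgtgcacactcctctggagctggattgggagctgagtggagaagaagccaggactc
Gsta1: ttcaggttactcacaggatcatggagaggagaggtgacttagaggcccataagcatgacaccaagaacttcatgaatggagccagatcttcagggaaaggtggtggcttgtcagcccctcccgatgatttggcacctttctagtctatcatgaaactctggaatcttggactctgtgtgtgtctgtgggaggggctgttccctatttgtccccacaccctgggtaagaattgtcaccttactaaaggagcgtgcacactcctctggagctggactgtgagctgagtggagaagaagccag

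The mu-class genes, a tandem cluster on chromosome 3, were higher or close to equal in scko cells. Of 7 mu-class rows past the filter, including the pseudogene, 4 were called higher, beside 21.2% of all genes, and 0 lower, beside 15.9%. Gstm4 had 211 counts in scko cells and 0 in flox/flox cells, 74.2-fold higher with the floor of 3 counts (interval from 59.8-fold). Gstm2 (chromosome 3, 107981702 to 107986453) stood at 110 CPM in scko cells and 32.1 CPM in flox/flox cells (log2 ratio 1.77, 1.63 to 1.92). Gstm5 stood at 65.0 CPM in scko cells and 30.1 CPM in flox/flox cells (1.11, 0.96 to 1.27), a call that ended when the libraries were scaled by their totals (0.98). The antisense gene 4933431E20Rik covers 13.9% of its exonic bases and had 146 counts in scko cells and 184 in flox/flox cells. Gstm6 had 32 counts in scko cells and 12 in flox/flox cells (1.45, 0.50 to 2.58), and this call ended with FPKM and a pseudocount of 1 (0.31).

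Gstm1, the most counted mu-class gene in flox/flox cells, was nearly equal at 1480 counts in scko cells and 1703 in flox/flox cells (log2 ratio -0.13, -0.23 to -0.02). Its processed pseudogene Gstm2-ps1 on chromosome 5 is 97.9% identical to Gstm1 over 657 bases despite its name, and had 108 counts in scko cells and 120 in flox/flox cells. The sum of the pair gave a log2 ratio of -0.12 (-0.22 to -0.02), so the near-equality of Gstm1 did not depend on that copy. Other mu-class pairs were 69.5% to 89.8% identical over their aligned stretches. Gstm7 had 22 counts in scko cells and 16 in flox/flox cells (0.52, -0.46 to 1.56), and Gstm3 had 0 counts in scko cells and 2 in flox/flox cells, below the floor and without a ratio. As a class, mu transferases came to 290 CPM in scko cells and 172 CPM in flox/flox cells (0.76, 0.69 to 0.83).

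By FPKM, the pi class held the most abundant transferase of the scko library. Gstp1 (chromosome 19, 4035407 to 4037985), the main pi-class enzyme and a known inhibitor of JNK signalling, had 3600 counts in scko cells and 5304 in flox/flox cells, a log2 ratio of -0.48 (-0.54 to -0.42) that did not reach 2-fold. Its neighbour Gstp2 had 173 counts in scko cells and 31 in flox/flox cells (2.54, 2.00 to 3.16) and was called higher. The transcripts of Gstp1 and Gstp2 are 94.2% identical over 798 bases, just under the 95% used to define a near-identical copy. How reads were divided between them cannot be told from the table, so the value of Gstp2, the far less counted of the pair, is uncertain. The pseudogene Gstp-ps, 99.2% identical to Gstp2, has no row in the table. The sum of Gstp1 and Gstp2 gave -0.42 (-0.48 to -0.36). By FPKM Gstp1 ranked 2nd of the 46 genes in either library, at 283 FPKM in scko cells and 434 FPKM in flox/flox cells.

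The remaining classes were lower in abundance and mixed in direction. Gstt1, a theta-class enzyme known for conjugating small halogenated compounds, had 234 counts in scko cells and 11 in flox/flox cells, 22.4-fold higher (log2 ratio 4.42, 3.62 to 5.51), whereas its neighbour Gstt3 had 23 counts in scko cells and 70 in flox/flox cells (-1.51, -2.28 to -0.83, but -0.66 with FPKM and a pseudocount of 1) and Gstt2 17 counts in scko cells and 20 in flox/flox cells. Part of the exons of Gstt3, 524 of 3842 bases, also belongs to the gene model Gm20441, which had 0 counts in scko cells and 5 in flox/flox cells. Gstk1, a kappa-class enzyme of mitochondria and peroxisomes, had 148 counts in scko cells and 11 in flox/flox cells, 14.2-fold higher (3.77, 2.95 to 4.86). Gsto1, which reduces dehydroascorbate, stood at 90.9 CPM in scko cells and 174 CPM in flox/flox cells (-0.94, -1.03 to -0.85). It was not called but became lower by the rule when scaled by totals (-1.07). Gsto2 had 46 counts in scko cells and 71 in flox/flox cells, with an interval that included equality. Gstz1, the maleylacetoacetate isomerase of tyrosine breakdown, stood at 42.7 CPM in scko cells and 29.0 CPM in flox/flox cells (0.56, 0.39 to 0.73).

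Over all 19 transferases past the filter, 7 were higher (36.8%, beside 21.2% of all genes) and 4 lower (21.1%, beside 15.9%), and over the other 26 genes 4 were higher and 3 lower (15.4% and 11.5%). The 20 transferases together came to 698 CPM in scko cells and 1247 CPM in flox/flox cells (log2 ratio -0.84, -0.87 to -0.80). Without the alpha class the sum was 688 CPM in scko cells and 701 CPM in flox/flox cells (-0.03, -0.06 to 0.01). In CPM the net difference in the transferase total thus lay in the alpha class, while the other classes differed in opposite directions. The mu class was higher in scko cells, as were the smaller theta, kappa and zeta classes. The pi class was lower, at 235 CPM in scko cells and 315 CPM in flox/flox cells, as was the omega class (93.7 CPM and 178 CPM). Scaled by totals, the sum without the alpha class gave a log2 ratio of -0.16. In FPKM the transferases without the alpha class also differed, at 479 FPKM in scko cells and 607 FPKM in flox/flox cells. In the plot by class the alpha class made up 9.93 FPKM in scko cells and 548 FPKM in flox/flox cells and the pi class 296 FPKM in scko cells and 436 FPKM in flox/flox cells.

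**Figure D3:**
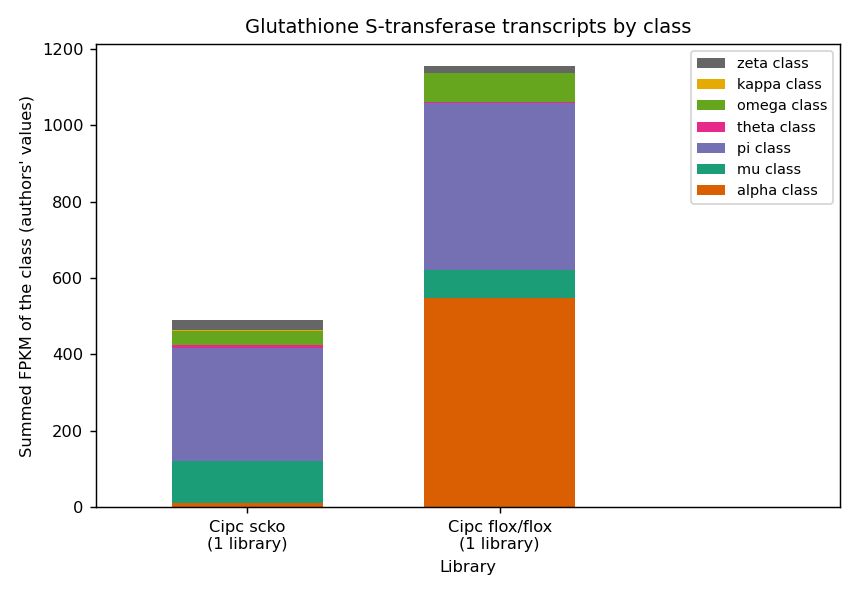
Stacked bars of the authors' FPKM summed over the members of each transferase class, 1 library per bar. The total was 489 FPKM in Cipc scko and 1155 FPKM in Cipc flox/flox, and the alpha segment is the one that differs most.

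Of 5 glutathione peroxidases 3 were called higher in scko cells, beside 21.2% of all genes, and 0 lower, beside 15.9%. The 3 act at different sites of the cell. Gpx3, the secreted selenoenzyme of plasma and extracellular fluid, had 9083 counts in scko cells and 146 in flox/flox cells, or 566 CPM in scko cells and 8.63 CPM in flox/flox cells. It was 65.6-fold higher (log2 ratio 6.03, 5.80 to 6.28) and ranked 3rd of 46 genes by FPKM in scko cells and 34th in flox/flox cells. Gpx7, a peroxidase of the endoplasmic reticulum without selenium that passes oxidising equivalents to protein disulfide isomerase, had 804 counts in scko cells and 0 in flox/flox cells. It was 283-fold higher with the floor of 3 counts (interval from 229-fold). Gpx1, the main cytosolic peroxidase, stood at 259 CPM in scko cells and 67.1 CPM in flox/flox cells, 3.86-fold higher (1.95, 1.85 to 2.04).

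The other 2 peroxidases did not reach 2-fold. Gpx4, which reduces phospholipid hydroperoxides and protects from ferroptosis, stood at 194 CPM in scko cells and 310 CPM in flox/flox cells (-0.68, -0.74 to -0.61). Its copies Gpx4-ps2 and AC122253.3, both pseudogenes with over 95% identity, have no row in the table. Gpx8, another peroxidase of the endoplasmic reticulum, stood at 68.8 CPM in scko cells and 78.4 CPM in flox/flox cells (-0.19, -0.30 to -0.07). Thus Gpx7 and Gpx8, which share a compartment, had different ratios. The summed counts of the family were 18271 in scko cells and 7862 in flox/flox cells (1.29, 1.25 to 1.33), of which Gpx3 supplied 9083 counts in scko cells and 146 in flox/flox cells. Gpx3 and Gpx7 were high in the library with the higher muscle differentiation markers, whose sums were 20988 CPM in scko cells and 52.8 CPM in flox/flox cells, and the part of this in their values was not tested.

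The promoter windows of the 3 genes with the highest ratios by the interval limit nearest to equality are shown for comparison with those of the alpha class: Gpx7 (chr4:108406664-108406963, minus strand), Gstm4 (chr3:108044810-108045109, minus strand) and Gpx3 (chr11:54902604-54902903, plus strand). Their RefSeq starts lie 248, 35 and 401 bases from the GENCODE starts. None of these windows holds a match to the 3 motifs.
Gpx7: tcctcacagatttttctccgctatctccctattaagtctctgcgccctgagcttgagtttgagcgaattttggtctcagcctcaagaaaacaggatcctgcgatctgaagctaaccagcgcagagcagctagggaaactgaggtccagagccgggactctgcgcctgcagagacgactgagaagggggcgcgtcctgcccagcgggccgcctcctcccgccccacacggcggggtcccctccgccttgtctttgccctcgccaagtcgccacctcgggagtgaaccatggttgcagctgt
Gstm4: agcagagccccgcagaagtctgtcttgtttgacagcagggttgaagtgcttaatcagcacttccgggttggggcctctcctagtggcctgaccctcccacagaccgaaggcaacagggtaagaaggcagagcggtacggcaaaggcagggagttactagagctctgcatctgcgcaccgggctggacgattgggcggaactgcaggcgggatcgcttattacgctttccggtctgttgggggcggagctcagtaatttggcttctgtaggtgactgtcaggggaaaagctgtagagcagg
Gpx3: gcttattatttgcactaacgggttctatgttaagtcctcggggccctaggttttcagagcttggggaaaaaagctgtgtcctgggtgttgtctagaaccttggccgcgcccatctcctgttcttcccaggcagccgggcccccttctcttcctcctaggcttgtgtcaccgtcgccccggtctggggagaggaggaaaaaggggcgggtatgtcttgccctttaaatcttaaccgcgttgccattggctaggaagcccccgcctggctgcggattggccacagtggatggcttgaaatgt

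Peroxiredoxins, thiol peroxidases that are among the most abundant antioxidant proteins of most cells, were nearly equal as a family. The 6 genes summed to 1720 CPM in scko cells and 1755 CPM in flox/flox cells (log2 ratio -0.03, -0.05 to -0.01), with a sign that turned under upper quartile scaling. Only Prdx5, found in mitochondria, peroxisomes and cytosol, was called, at 424 CPM in scko cells and 185 CPM in flox/flox cells (1.20, 1.14 to 1.26). On the opposite strand, exons of Trmt112 cover 19.1% of its exonic bases, and Trmt112 had 299 counts in scko cells and 440 in flox/flox cells, the other direction. Cytosolic Prdx1, the most counted of the 46 genes in flox/flox cells, had 8181 counts in scko cells and 13065 in flox/flox cells (-0.60, -0.64 to -0.56). Prdx4 of the endoplasmic reticulum, an X-linked gene, stood at 83.3 CPM in scko cells and 128 CPM in flox/flox cells (-0.62, -0.72 to -0.52). Mitochondrial Prdx3 stood at 136 CPM in scko cells and 105 CPM in flox/flox cells (0.37, 0.28 to 0.46). Prdx2 and Prdx6 were closest to equal, at 358 CPM in scko cells and 376 CPM in flox/flox cells and at 208 CPM in scko cells and 189 CPM in flox/flox cells. For Prdx1 and Prdx2 near-identical processed pseudogenes exist. Tdpx-ps1, the copy of Prdx2 in the table, had 155 counts in scko cells and 191 in flox/flox cells, and adding it left the ratio at -0.07.

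Among superoxide dismutases, the mitochondrial Sod2 had the highest ratio. Sod2 had 3121 counts in scko cells and 1662 in flox/flox cells, 1.98-fold higher (log2 ratio 0.99, 0.90 to 1.07). It thus lay just under the limit and passed it under upper quartile scaling (1.03). Cytosolic Sod1 stood at 197 CPM in scko cells and 235 CPM in flox/flox cells (-0.25, -0.32 to -0.18). By FPKM it ranked 1st of the 46 genes in scko cells and 3rd in flox/flox cells. Extracellular Sod3 had 192 counts in scko cells and 213 in flox/flox cells, with an interval that included equality. Catalase (Cat), the peroxisomal enzyme that breaks down hydrogen peroxide, stood at 99.5 CPM in scko cells and 123 CPM in flox/flox cells (-0.30, -0.40 to -0.21).

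Nfe2l2 and Keap1 themselves were within 2-fold. Of the known NRF2 targets described next, Srxn1 and Nqo1 were called lower and Hmox1 was not called. Nfe2l2 had 2687 counts in scko cells and 3387 in flox/flox cells (log2 ratio -0.26, -0.33 to -0.18), and Keap1 had 1132 counts in scko cells and 1278 in flox/flox cells (-0.10, -0.22 to 0.02). RNA levels do not show the activity of NRF2, which is known to be set mainly through protein stability. Srxn1, sulfiredoxin, which restores over-oxidised peroxiredoxins, had 679 counts in scko cells and 5417 in flox/flox cells and was 7.57-fold lower (-2.92, -3.04 to -2.80). Nqo1, a quinone reductase used widely as an NRF2 readout, had 368 counts in scko cells and 2006 in flox/flox cells and was 5.17-fold lower (-2.37, -2.53 to -2.21). Hmox1, haem oxygenase, went the other way without reaching 2-fold, at 194 CPM in scko cells and 119 CPM in flox/flox cells (0.71, 0.62 to 0.79).

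The set holds 5 genes of glutathione and thioredoxin upkeep, Gclc, Gclm, Gsr, Txnrd1 and Srxn1. All 5 ratios lay below 0, as did those of 6400 of all 12874 genes past the filter, and Srxn1 alone was called. Of the wider lists described further on, that of glutathione synthesis, turnover and transport had 9 of 21 genes higher and 2 lower, beside 21.2% and 15.9% of all genes. That of the thioredoxin system had ratios on both sides. Gclc and Gclm, the catalytic and modifier subunits of the rate-limiting enzyme of glutathione synthesis, differed by -0.40 and -0.78. Gclc stood at 48.2 CPM in scko cells and 63.5 CPM in flox/flox cells, and Gclm at 28.5 CPM in scko cells and 48.9 CPM in flox/flox cells. Gsr, glutathione reductase, stood at 52.9 CPM in scko cells and 101 CPM in flox/flox cells (-0.93, -1.05 to -0.81), and passed the limit when scaled by totals (-1.07). Txnrd1, cytosolic thioredoxin reductase, stood at 328 CPM in scko cells and 498 CPM in flox/flox cells (-0.60, -0.65 to -0.55). Summed, the 5 genes gave -1.04 (-1.08 to -1.01).

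G6pdx, the rate-limiting enzyme of the oxidative pentose phosphate pathway, had 1376 counts in scko cells and 6550 in flox/flox cells and was 4.52-fold lower (-2.17, -2.26 to -2.09). It is X-linked, and the libraries differ in Xist, whose part was not tested. Prdx4 is on the same chromosome and was 1.54-fold lower, while the median of 418 X-linked genes past the filter was -0.12. Exons of Ikbkg on the opposite strand cover 418 of 3080 exonic bases of G6pdx, and Ikbkg had 1798 counts in scko cells and 657 in flox/flox cells. Taldo1, transaldolase of the non-oxidative branch, had 3494 counts in scko cells and 3825 in flox/flox cells, with an interval that included equality.

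The promoter window of Srxn1 (chr2:152105274-152105573, plus strand), the called member of this group with the largest difference, holds 3 motif matches, in capitals. TGAGTCA begins 102 and again 45 bases before the RefSeq start, and the third match, GCTAGGTCA, which is TGACNNNGC read on the other strand, lies 28 bases after it.
Srxn1: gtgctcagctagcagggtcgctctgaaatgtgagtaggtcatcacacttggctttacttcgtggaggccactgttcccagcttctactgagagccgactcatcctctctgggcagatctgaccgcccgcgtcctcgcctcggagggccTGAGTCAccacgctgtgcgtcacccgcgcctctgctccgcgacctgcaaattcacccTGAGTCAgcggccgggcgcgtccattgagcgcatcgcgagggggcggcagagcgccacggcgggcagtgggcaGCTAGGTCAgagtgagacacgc

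Motifs were counted in the promoter windows of all genes. The table held a window for 38 of the 46 genes and for 37 of those past the filter. TGACNNNGC occurred in 9 of 50 windows of those 37 genes (18%), beside 14.3% of 12656 windows of genes past the filter and 12.4% of all 32851 windows. Genes with it were G6pdx, Gclm, Gstm5, Gstm7, Nfe2l2, Prdx1, Sod1, Srxn1 and Txnrd1. Among called genes it occurred in 2 of 7 windows of lower genes (G6pdx and Srxn1) and in 1 of 14 windows of higher genes (Gstm5). CACGTG occurred in 1 of the 50 windows, that of Prdx4, beside 9.97% of windows past the filter. TGAGTCA, which was added after the sequences were seen, occurred in 5 of 50 windows (Gstm5, Gstp1, Gstp2, Prdx1 and Srxn1), beside 3.86%. TGAGTCA and TGACNNNGC can overlap on opposite strands. A match is a description of these letters, and elements farther from the start were not searched.

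Neighbouring genes were set beside the transferase clusters, against 21.2% higher and 15.9% lower over all genes past the filter. Within 1 Mb of the alpha cluster, 15 other genes passed the filter, Gclc among them, of which 3 were higher and 2 lower (median log2 ratio -0.10). One of the 2 lower genes was Gm10639, which lies inside the cluster, is itself a near-identical copy and was named after its values were seen. All 727 genes of chromosome 9 past the filter had a median of 0.25, with 171 higher and 79 lower. Around the mu cluster 7 of 28 neighbours were higher and 5 lower (median -0.14), beside 131 and 123 of 641 genes of chromosome 3 (median -0.12). Around the theta genes 8 of 28 were higher and 8 lower (median -0.32), beside 106 and 147 of 623 genes of chromosome 10 (median -0.34). Around the pi genes 10 of 54 were higher and 7 lower (median 0.13), and around the omega genes 2 of 14 were higher and 5 lower (median -0.41). Of 452 genes of chromosome 19, which holds both, 99 were higher and 71 lower (median -0.08). Single neighbours differed widely in either direction, around the alpha cluster between -7.92 (Gm10639) and 5.84.

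**Figure D4:**
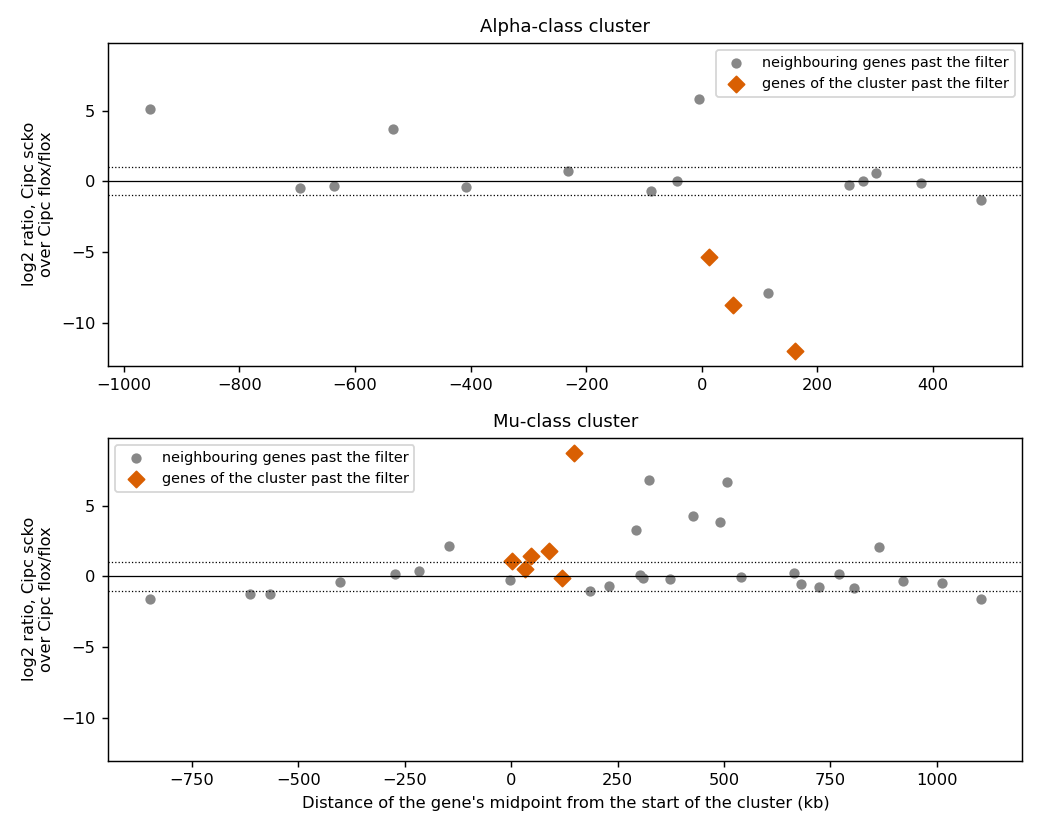
Log2 ratio (scko over flox/flox) against the distance in kb of each gene's midpoint from the start of the alpha-class cluster (top) and the mu-class cluster (bottom); diamonds are genes of the cluster and grey points are neighbours past the filter. The 3 alpha-class diamonds lie at -5.35 and below, as does Gm10639, the grey point between them, whereas the other neighbours are scattered on either side of 0, many of them between the dotted 2-fold lines.

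Genes around these enzymes were taken from 8 further lists, again beside the background of 21.2% higher and 15.9% lower. Of 12 other glutathione-using transferases and related proteins, 4 were higher and 3 lower (median log2 ratio -0.04). Ptges, prostaglandin E synthase, stood at 21.9 CPM in scko cells and 2.19 CPM in flox/flox cells (3.30, 2.83 to 3.85), and microsomal Mgst1 at 42.0 CPM in scko cells and 11.0 CPM in flox/flox cells. The related Mgst3 stood at 17.8 CPM in scko cells and 102 CPM in flox/flox cells (-2.53, -2.72 to -2.35) and Mgst2 at 3.36 CPM in scko cells and 11.0 CPM in flox/flox cells (-1.70, but -0.99 with FPKM and a pseudocount of 1).

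Genes of glutathione synthesis, turnover and transport were called higher for 9 of 21 and lower for 2 (median 0.32). The membrane dipeptidase Dpep1, which cleaves the cysteinylglycine left by glutathione breakdown, had 486 counts in scko cells and 1 in flox/flox cells (8.40, 6.52 to 14.31), and the gamma-glutamyl transferase Ggt5 27 counts in scko cells and 1 in flox/flox cells (4.26, 2.23 to 10.19, but 0.33 with FPKM and a pseudocount of 1). The aminopeptidase Anpep had 182 counts in scko cells and 3557 in flox/flox cells (-4.21, -4.44 to -4.00), and the exporter Abcc5 736 counts in scko cells and 3026 in flox/flox cells. Members with the same substrate thus differed in opposite directions, as Dpep1 and Anpep can both act on cysteinylglycine.

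Of 22 genes of the thioredoxin and glutaredoxin system 3 were higher and 3 lower (median -0.16). The stress-induced sestrin Sesn2 stood at 121 CPM in scko cells and 40.9 CPM in flox/flox cells, and Txnip, which binds and inhibits thioredoxin, at 81.7 CPM in scko cells and 34.3 CPM in flox/flox cells (1.25, but 0.99 with FPKM and a pseudocount of 1). The methionine sulfoxide reductase Msrb2 had 4 counts in scko cells and 76 in flox/flox cells and the copper chaperone of cytochrome oxidase Sco2 152 counts in scko cells and 621 in flox/flox cells. Of 20 genes of NADPH supply 3 were higher and 5 lower (median -0.26). H6pd, which makes NADPH inside the endoplasmic reticulum, stood at 339 CPM in scko cells and 64.0 CPM in flox/flox cells (2.40, 2.31 to 2.50), while its cytosolic counterpart G6pdx stood at 85.7 CPM in scko cells and 387 CPM in flox/flox cells. Mthfd2, a mitochondrial folate enzyme, was also called higher (1.09, 1.02 to 1.16, but 0.96 with totals), while the malic enzyme Me2 (-2.28, -2.43 to -2.13) and the folate enzyme Aldh1l1 (7 counts in scko cells and 95 in flox/flox cells, but -0.84 with FPKM and a pseudocount of 1) were called lower.

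Of 18 partners and regulators of NRF2 2 were higher and 2 lower (median 0.07). The autophagy receptor Sqstm1, which sequesters KEAP1 and is itself an NRF2 target, had 7851 counts in scko cells and 29121 in flox/flox cells (-1.81, -1.85 to -1.78). Rbx1, the RING subunit of the ubiquitin ligase that KEAP1 serves, was lower too (-1.06, -1.16 to -0.97), whereas Trim21 had 436 counts in scko cells and 9 in flox/flox cells and Amer1 765 counts in scko cells and 188 in flox/flox cells. Trim21 is also an interferon-induced gene. Of 28 other NRF2 targets 7 were higher and 8 lower (median -0.36). The aldehyde dehydrogenase Aldh3a1 had 20 counts in scko cells and 1095 in flox/flox cells (-5.66, -6.42 to -5.06), and Uap1l1 532 counts in scko cells and 4671 in flox/flox cells. Htatip2 had 615 counts in scko cells and 45 in flox/flox cells (3.83, 3.41 to 4.32), and Trib3, also a target of ATF4, 2842 counts in scko cells and 757 in flox/flox cells. Called genes of this list thus lay on both sides. In the set itself Nqo1 was called lower, and Hmox1, with a ratio above 0, was not called.

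Of 19 metallothionein and selenoprotein genes 1 was higher and 2 lower (median -0.13). The one higher gene was Selenow, a small selenoprotein abundant in muscle, at 419 CPM in scko cells and 62.0 CPM in flox/flox cells (2.75, 2.66 to 2.85). Lrp8, a receptor for selenoprotein P, had 181 counts in scko cells and 653 in flox/flox cells and metallothionein Mt1 970 counts in scko cells and 2957 in flox/flox cells. Genes that make superoxide or hydrogen peroxide were called lower for 7 of 18, or 38.9%, and higher for 3 (median -0.04). The NADPH oxidase Nox4 had 0 counts in scko cells and 156 in flox/flox cells, 49.3-fold lower with the floor of 3 counts (log2 -0.94 with FPKM and a pseudocount of 1). The dual oxidase Duox1 had 0 counts in scko cells and 113 in flox/flox cells, 35.7-fold lower with the floor. The monoamine oxidase Maob had 198 counts in scko cells and 0 in flox/flox cells, 69.6-fold higher with the floor, and Cyba, a subunit of several NADPH oxidases, 112 counts in scko cells and 3 in flox/flox cells (5.08, 3.71 to 7.60).

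**Figure D5:**
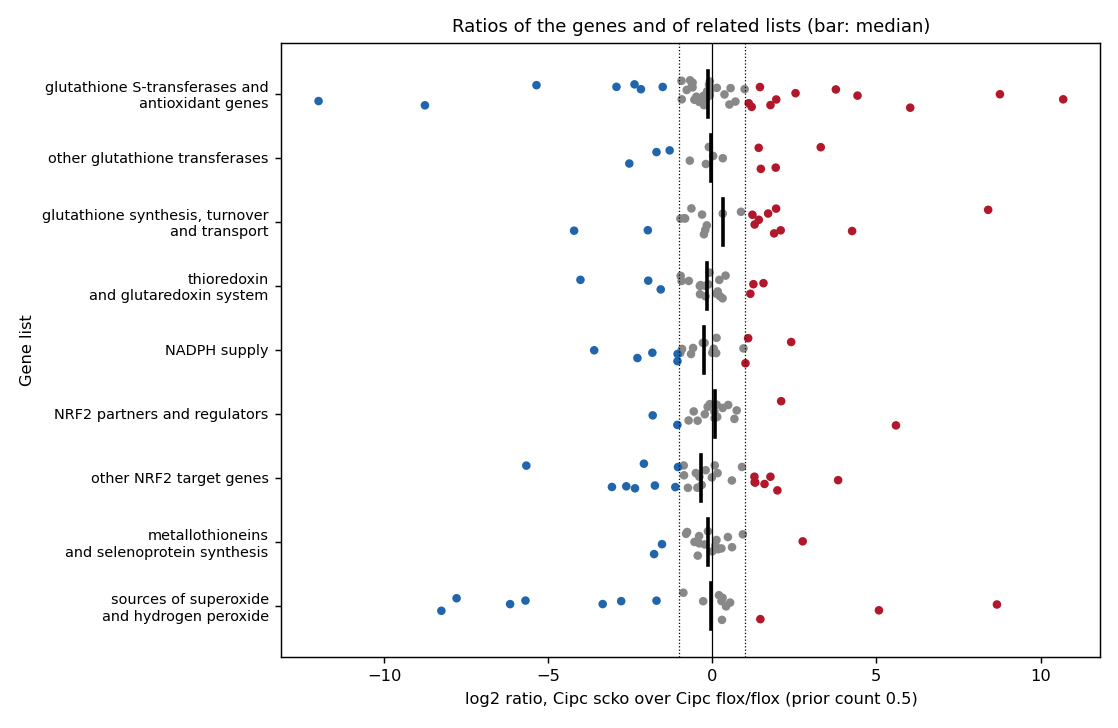
Log2 ratios (scko over flox/flox) for the 45 genes past the filter (top row) and for the genes of 8 related lists, 1 point per gene, with a bar at each median; points beyond the dotted 2-fold lines are coloured, whatever their interval. All 9 medians lie between -0.36 and 0.32, and every row has points on either side.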

How the data were processed

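The library kit for total RNA was VAHTS Universal V6, per the labels' protocols. The authors deposited raw counts per gene in a joint table and FPKM separately for each library, per the file headers. HISAT2 2.0.4, StringTie 1.3.0, CASAVA and GRCm38 are listed in the submitters' processing notes without their roles. The sources used here state no counting tool, annotation release or strand setting, so reads of overlapping genes on opposite strands cannot be told apart. The deposited FPKM are counts rescaled by library totals and length, with agreement of their ratios between 0.9996 and 1.0002 over 13719 genes, and served for levels between genes and as an alternative.

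Symbols and positions came from GENCODE vM21 (16116 of 16190 identifiers matched). Counts were scaled with TMM factors (edgeR 4.0.16, R 4.3.3) over the whole table, and log2 ratios used a prior count of 0.5. Intervals are exact Clopper-Pearson intervals at 95% (scipy 1.17.1). Folds are ratios of CPM. A count of 0 was replaced, for folds, by 3 counts in that library (0.187 CPM in Cipc scko, 0.177 CPM in Cipc flox/flox). Such a fold lies inside the 95% interval and is not its limit. Folds at the floor and intervals hold counting error only, and PCR duplicates could not be removed. No p-value could be had from 1 library per group. Transcripts were searched against all annotated genes with BLAST+ 2.17.0, and a near-identical copy had 95% identity over 80% of the shorter transcript. Of the 46 genes, 5 have such a copy in the table and 5 have copies outside it alone. The calling rule was tested on simulated counts that held counting error alone, so that test cannot speak to variation between animals.

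Genes, lists and rules were chosen with earlier results of these data known. Every gene of the set was to be accounted for, and in each related list the 2 highest and 2 lowest called genes, ranked by the interval limit closer to equality. Promoter sequences are from RefSeq on GRCm38.p6. Alternatives were other scalings (totals, DESeq2 1.42.0 size factors, upper quartile, totals leaving out mitochondrial genes and the 10 with most counts), filters, prior counts, FPKM with a pseudocount of 0.1 or 1, fold limits and the treatment of copies.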

Additional observations from a re-analysis of the deposited data

How the results depend on the processing

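Under the 7 alternatives of scaling, prior count and FPKM, none of the 45 ratios changed sign. Between 9 and 12 genes were higher and 6 to 9 lower under alternatives of scaling, filter, prior count and FPKM and with copies summed, and 10 and 5 without pseudogenes and copies. Since the fold limit sets how many pass, 6 were higher at 4-fold and 14 lower at 1.5-fold. The median of the 45 genes was -0.13, and became -0.26 with scaling by totals and -0.26 with FPKM and a pseudocount of 0.1, since scaling by totals shifts every log2 ratio by -0.14. The median of all genes, 0.0062, became -0.13 with totals, -0.015 with DESeq2 size factors, -0.080 with totals leaving out mitochondrial and top genes, -0.13 and -0.096 with FPKM at pseudocounts of 0.1 and 1, and -0.034 with a CPM of at least 5. Summed dismutases and catalase had a log2 ratio of 0.10 with TMM factors, which became -0.033 with totals. Summed peroxiredoxins became 0.011 with upper quartile scaling. The median of NRF2 partners became -0.068 with totals, -0.020 leaving out mitochondrial and top genes, and -0.067 and -0.063 with FPKM at pseudocounts of 0.1 and 1. With upper quartile scaling the medians of other transferases and of sources of superoxide became 0.0013 and 0.0046, and that of sources of superoxide 0.20 with a CPM of at least 5. Gstm5 lost its call with totals (0.98) and with FPKM at pseudocounts of 0.1 and 1 (0.97 and 0.92). Gstm6 and Gstt3, with few counts, lost their calls with FPKM and a pseudocount of 1 (0.31 and -0.66). The same held, of the named genes of the related lists, for Nox4 (-0.94), Ggt5 (0.33), Aldh1l1 (-0.84), Mgst2 (-0.99), Txnip (0.99) and Mthfd2 (0.94). Mthfd2 also lost its call with totals (0.96) and FPKM at 0.1 (0.96), and Gsto1 and Gsr were called lower with totals, with FPKM and leaving out mitochondrial and top genes. No paired analysis was possible because each group has 1 library, and no library could be left out. Depth limits Gstm3, Gstm7, Gstt2 and Gsto2, whose intervals included equality.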
